A study of Mus musculus with 2 samples.

Results

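Retinoic acid reaches its target genes through a short chain of enzymes and receptors, and 10 genes of that chain were followed here across the cell types of the mouse embryo. The members were Aldh1a1, Aldh1a2 and Aldh1a3 for synthesis, Cyp26a1, Cyp26b1 and Cyp26c1 for breakdown, Rara, Rarb and Rarg for the receptors, and Dhrs3. They were taken by gene symbol from both count matrices, where each symbol stood on 1 row, so they were 10 of 32285 listed genes. The data were single-cell RNA sequencing of whole embryos at embryonic day 9.5, with 1 library labelled WT (wild-type) and 1 labelled Usb1 knockout (Usb1-null). The null allele is a germline deletion of exons 1 and 2 of Usb1, which encodes a nuclease that trims the tail of U6 small nuclear RNA. The number of embryos behind a library is not stated in the sources used here. With 1 library per genotype no difference below has a replicate check and none was tested. Intervals in parentheses are exact 95% intervals that cover counting error only.

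Retinoic acid is made from vitamin A in a pair of oxidation steps. Retinol dehydrogenases give retinaldehyde, and the retinaldehyde dehydrogenases ALDH1A1, ALDH1A2 and ALDH1A3 oxidize it to retinoic acid. The CYP26 enzymes are cytochromes that hydroxylate retinoic acid and so clear it, and DHRS3 turns retinaldehyde back into retinol. The receptors RARA, RARB and RARG bind DNA with a retinoid X receptor partner, most often at direct repeats of a short half-site. In the embryo the trunk mesoderm is the textbook source of retinoic acid, whereas the anterior hindbrain, the head and the tail bud are known for CYP26 activity.

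The libraries held 15162 wild-type and 13034 Usb1-null barcodes, of which 15161 and 13018 passed the cell filter. The null library was deeper, with a median of 2299.5 unique molecular identifiers (UMIs, 1 per captured transcript) per cell against 1243. Kept cells summed to 21732106 and 33383886 UMIs. The same 61 barcodes occurred in both libraries. Xist gave 53276 wild-type and 26 null UMIs, and 4 Y-linked genes gave 14 and 23463 UMIs, so sex and genotype cannot be told apart. Usb1 itself stood at 3.13 and 1.41 counts per 1000000 UMIs (CPM), a ratio of 0.450 (0.304 to 0.662). Reads from 3′ ends can lie outside the deleted exons, so this hardly checks the deletion.

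Rarb and Cyp26a1, both classic retinoic acid-induced genes, were the members with a receptor-type repeat just upstream of their start. RefSeq start-site windows (250 bases before to 50 after each start, GRCm38.p6) were found for 9 of the 10 members, in 16 windows, and not for Aldh1a3. They were searched on both strands for direct repeats of the half-site AGGTCA or one of its variants AGTTCA or else GGTTCA or else GGGTCA, spaced by 1, 2 or 5 bases, the spacings that receptor dimers are known to bind. No member window held the repeats spaced by 1 or 2 bases, which occur in 0.222% and 0.268% of all 32851 windows. Repeats spaced by 5 bases occur in 0.0974% of windows, and 2 of the 16 member windows held one. Those of Rarb and Cyp26a1 are made of the listed variants GGTTCA and AGTTCA. The result therefore depends on that list and is no test of enrichment. The last 100 bases before the start are shown for these 2 genes, the ones with a match, with the repeat in capitals.
Rarb, chr14:16575477-16575576, minus strand: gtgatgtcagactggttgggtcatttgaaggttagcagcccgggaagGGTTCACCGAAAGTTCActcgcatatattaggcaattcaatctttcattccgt
Cyp26a1, chr19:37697708-37697807, plus strand: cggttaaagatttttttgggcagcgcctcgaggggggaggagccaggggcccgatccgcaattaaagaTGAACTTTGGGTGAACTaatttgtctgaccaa
In Rarb the repeat reads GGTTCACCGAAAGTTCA on the gene's own strand, from 53 to 37 bases before the start. In Cyp26a1 it reads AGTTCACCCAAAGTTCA on the opposite strand, from 32 to 16 bases before the start. The RefSeq start used for Rarb lies inside the longer gene given below. A match describes these letters and is no evidence of binding in these cells.

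In the GENCODE M21 annotation of GRCm38, the synthesis genes lie at chr19:20492715-20643465 (Aldh1a1), chr9:71215789-71296243 (Aldh1a2) and chr7:66390890-66427517 (Aldh1a3). Cyp26b1 lies at chr6:84571414-84593908. Cyp26c1 (chr19:37685581-37693398) and Cyp26a1 (chr19:37697798-37701536) are neighbours on the plus strand, 4399 bases apart. The receptors lie at chr11:98927818-98974942 (Rara), chr14:16430839-16819156 (Rarb) and chr15:102234938-102257517 (Rarg), and Dhrs3 at chr4:144892827-144928209. Rarb is the longest of them, and Top2b overlaps its 3′ end by 4624 bases on the opposite strand. Whether the counting used strand is not stated, and if strand was ignored the reads of Rarb and Top2b there could not be told apart. Across the 26 clusters described next, log2 levels of Rarb and Top2b had a Pearson r of 0.14 in the wild-type and -0.12 in the null library, a description over points that share their libraries.

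Cells fell into 30 clusters, which were built with the 10 members and the other retinoid genes left out, so that the members did not define the groups they are compared over. Of these, 25 matched a cell type by markers and are called by it with the suffix "-like". The names were rebuilt here and may differ from those of the study. Comparisons use the 26 clusters that had 100 or more cells on both sides. Defining markers bore out most names, for instance all 8 endothelial markers in cluster 2 and all 10 cardiomyocyte markers in cluster 15. The name rested on 3 of 8 markers in cluster 11 (cranial mesoderm-like), and Dmrt2 and Sim1 were among the leading genes of cluster 12 (somite sclerotome-like). The presomitic mesoderm and tail bud-like cluster 23 had Tbx6 at 41.6 and 38.0 CPM but no UMI of Nkx1-2 or Wnt3a in either library.

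**Figure D1:**
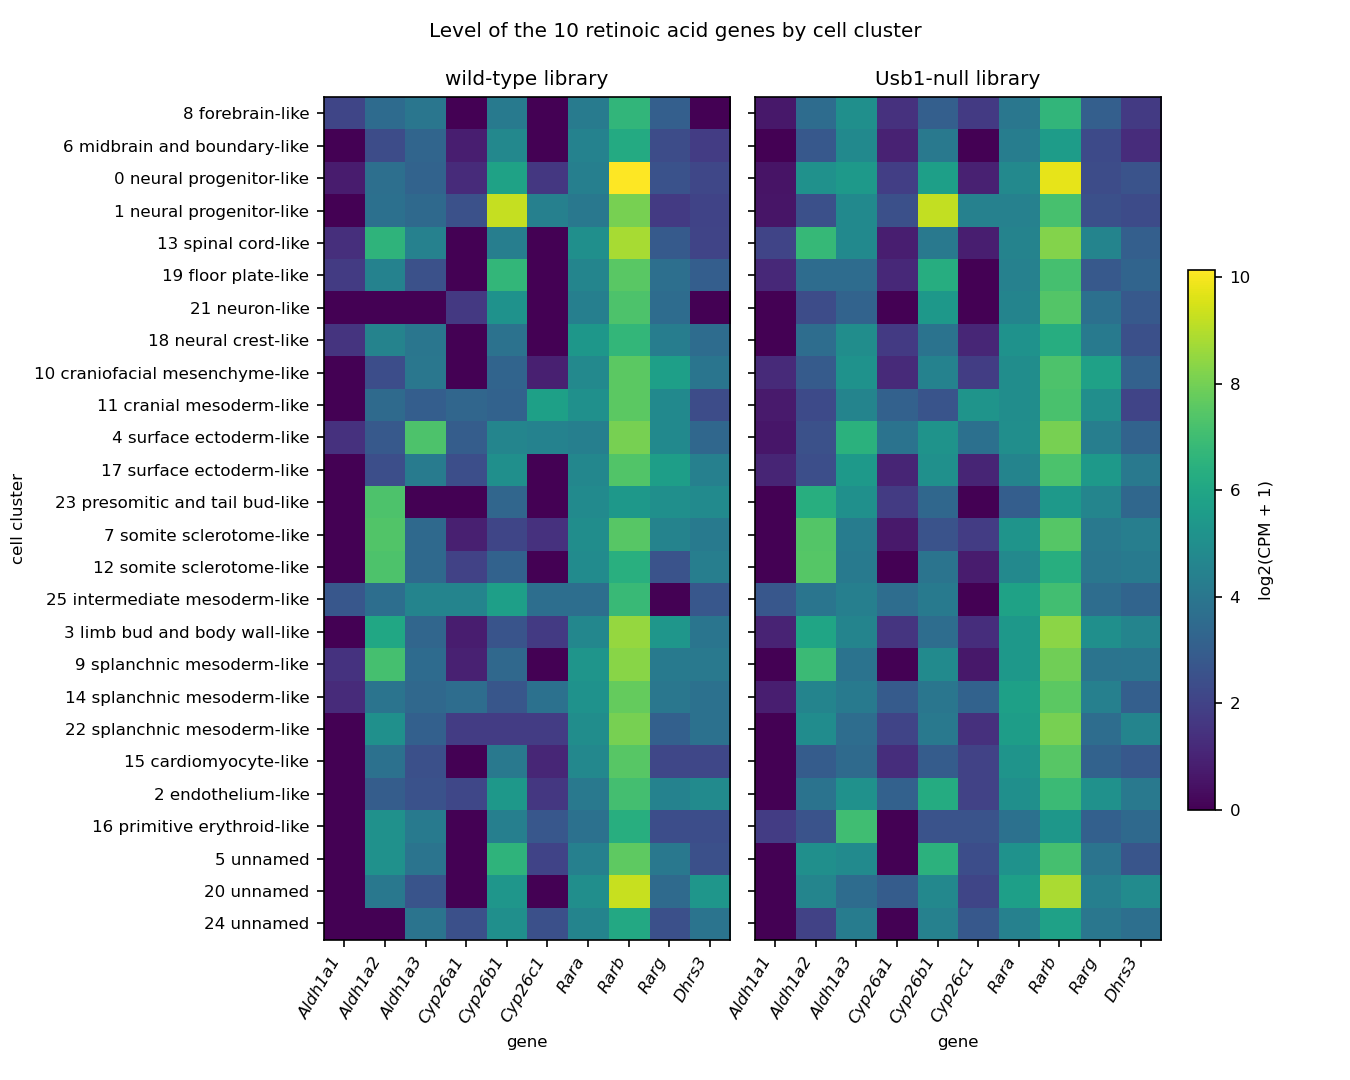
Levels of the 10 genes in the 26 compared clusters of each library, on a colour scale of log2(CPM + 1). Rarb is brightest in cluster 0 of both libraries (1124.5 and 873 CPM), Cyp26b1 in cluster 1 (604 and 589 CPM), and Aldh1a2 is bright in the somite, splanchnic and spinal cord-like clusters.

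Aldh1a2, the main retinaldehyde dehydrogenase of the early embryo, was a trunk gene in both libraries. Its level was 168 CPM (146 to 193) in the somite sclerotome-like cluster 7 of the wild-type library and 170 CPM (150 to 191) in the null library. In the second somite cluster, 12, the levels were 158 and 177 CPM, and in the splanchnic lateral plate mesoderm-like cluster 9 they were 143 (121 to 166) and 119 (103 to 136) CPM. Somite sclerotome-like cells held 39.2% of wild-type and 39.1% of null Aldh1a2 UMIs while contributing 9.96% and 9.15% of all UMIs. When clusters were built with no library correction, they held 20.35% and 20.2% of the Aldh1a2 UMIs. The intervals of 3 other clusters (12, 23 and 9) overlapped that of the leading cluster in the wild-type library, so the order among them is not resolved by the counts. Within mesoderm, limb bud and body wall mesenchyme-like cells followed with 64.7 and 61.2 CPM. Outside mesoderm the spinal cord-like cluster 13 stood out with 94.3 CPM (71.7 to 122) and 110 CPM (91.8 to 130). The median cluster had 13.4 and 12.4 CPM, and the forebrain-like (10.8 and 10.9 CPM) and midbrain-like (4.09 and 5.86 CPM) clusters lay at or below it.

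Aldh1a3, the form known for the eye, nose and surface epithelia of the head, peaked in 1 surface ectoderm-like cluster of the wild-type library. Cluster 4, in which 6 gut and pharyngeal endoderm markers were also raised, had 157 CPM (135 to 181), and no other cluster's interval reached it. The next cluster, intermediate mesoderm-like, had 23.1 CPM. In the null library cluster 4 had 88.6 CPM (75.9 to 103) and the primitive erythroid-like cluster 16 had 131 CPM (97.9 to 172), with intervals that overlap, so their order is not resolved by the counts. Even in cluster 4 the gene was found in few cells: 9.73% of wild-type and 10.2% of null cells held a UMI, and 8.65% and 4.56% after every cell was thinned to 892 UMIs, the lower quartile of the wild-type library. Erythroid-like cells had 1.51% and 12.2%, and are no background for this gene in the null library, where they had 131 CPM of it. Aldh1a1, which is known from the dorsal retina and adult tissues, was almost absent, with 14 wild-type and 28 null UMIs in all and no UMI in 17 and 13 of the 26 clusters.

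Cyp26b1 was the most confined of the abundant members. The neural progenitor-like cluster 1 had 604 CPM (562 to 648) in the wild-type and 589 CPM (556 to 624) in the null library, and held 61.0% and 57.0% of all its UMIs. The gene was also first among the leading genes of this cluster, although it was not used to build it. Cluster 1 was named for 7 of 9 neural progenitor markers. Hindbrain was the second list, with 5 markers raised and 0 among the leading genes. Egr2 had 6.22 and 17.6 CPM there (named after its values were seen), from 8 and 35 UMIs. Hoxb2 was alike in cluster 1 (51.3 and 70.5 CPM) and cluster 0 (49.7 and 67.7 CPM). The next levels of Cyp26b1 were in the floor plate-like cluster 19 (104 and 79.2 CPM) and the unnamed cluster 5 (95.7 and 90.96 CPM). Cells of cluster 5 were shallow and led by no marker. Intervals of these clusters did not reach that of cluster 1. A UMI of Cyp26b1 was found in 26.0% of wild-type and 36.1% of null cells of cluster 1. Thinned to 892 UMIs, these shares were 25.4% and 24.5%, and the erythroid-like background was 1.34% and 1.06%.

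Cyp26c1, which acts beside Cyp26b1 in the hindbrain and head mesenchyme, was scarce and had a different leading cluster. The cranial mesoderm-like cluster 11 led in both libraries, at 53.5 CPM (39.9 to 70.1) for wild-type and 37.1 CPM (28.1 to 48.1) for the null. Surface ectoderm-like cluster 4 had 21.6 and 12.4 CPM, and cluster 1 had 20.2 and 21.1 CPM. The interval of 1 other cluster overlapped that of the leading cluster in each library. No UMI was seen in 11 wild-type and 5 null clusters. Cyp26a1, the form best known from the tail bud, gave 55 and 111 UMIs in all. The presomitic mesoderm and tail bud-like cluster held 0 and 1 of them. Cyp26a1 was spread over surface ectoderm-like, splanchnic, cranial mesoderm-like and neural progenitor-like cells without a leading cluster whose interval stood above the next. The highest level in the wild-type library, 23.1 CPM (6.29 to 59.1) in intermediate mesoderm-like cells, rested on 4 UMIs, and that in the null library was 13.4 CPM (8.75 to 19.6) in surface ectoderm-like cluster 4. Its log2 level went with that of its neighbour Cyp26c1, with a Pearson r of 0.71 (wild-type) and 0.45 (null) over 26 clusters, which share library and depth.

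Synthesis genes outweighed breakdown genes in most trunk mesoderm clusters, and the reverse held in neural progenitor-like cluster 1 and cranial mesoderm-like cluster 11. The synthesis share, the UMIs of the 3 Aldh1a genes as a percent of those plus the UMIs of the 3 Cyp26 genes, ran from 0% to 96.8% over the 26 wild-type clusters and from 4.98% to 95.9% over the null clusters. It compares clusters, since genes are captured with unlike efficiency and it is not an enzyme balance. In the wild-type library it was highest in the somite (96.8% and 93.8%), presomitic (94.4%), splanchnic cluster 9 (93.6%), limb bud (89.9%) and spinal cord-like (85.9%) clusters. It was lowest in neuron-like cells (0 of 17 UMIs, 0% to 19.5%) and in cluster 1, with 3.46% (2.33% to 4.93%). Cranial mesoderm-like (19.8%), endothelium-like (20.2%) and floor plate-like (21.4%) cells also lay low. Not all trunk clusters were high, since intermediate mesoderm-like cells had 31.8% (13.9% to 54.9%) in the wild-type and 58.3% in the null library, and splanchnic cluster 14 had 46.2% and 58.1%. Not all head clusters were low, since forebrain-like cells had 63.6% and craniofacial mesenchyme-like cells 67.6%. Intervals lay above 50% in both libraries in 9 clusters and below 50% in both in 6. They did not overlap between the libraries in 5 clusters (0, 4, 6, 9 and 16).

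Pooled classes differed in the same direction. The 8 clusters of trunk mesoderm classes had a synthesis share of 89.8% (87.5% to 91.8%) in wild-type and 86.3% (84.3% to 88.2%) in Usb1-null cells. The 4 clusters of forebrain, midbrain, craniofacial and cranial mesoderm-like cells had 40.8% (34.3% to 47.6%) and 59.6% (54.7% to 64.3%). The higher head share of the null library moved with Aldh1a3: with that gene left out the head classes had 21.9% (15.9% to 28.9%) and 23.0% (17.6% to 29.1%), and the trunk classes 89.0% and 84.2%. Over single clusters the null share was higher in 17 of 26, and without Aldh1a3 in 11 of 26.

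**Figure D2:**
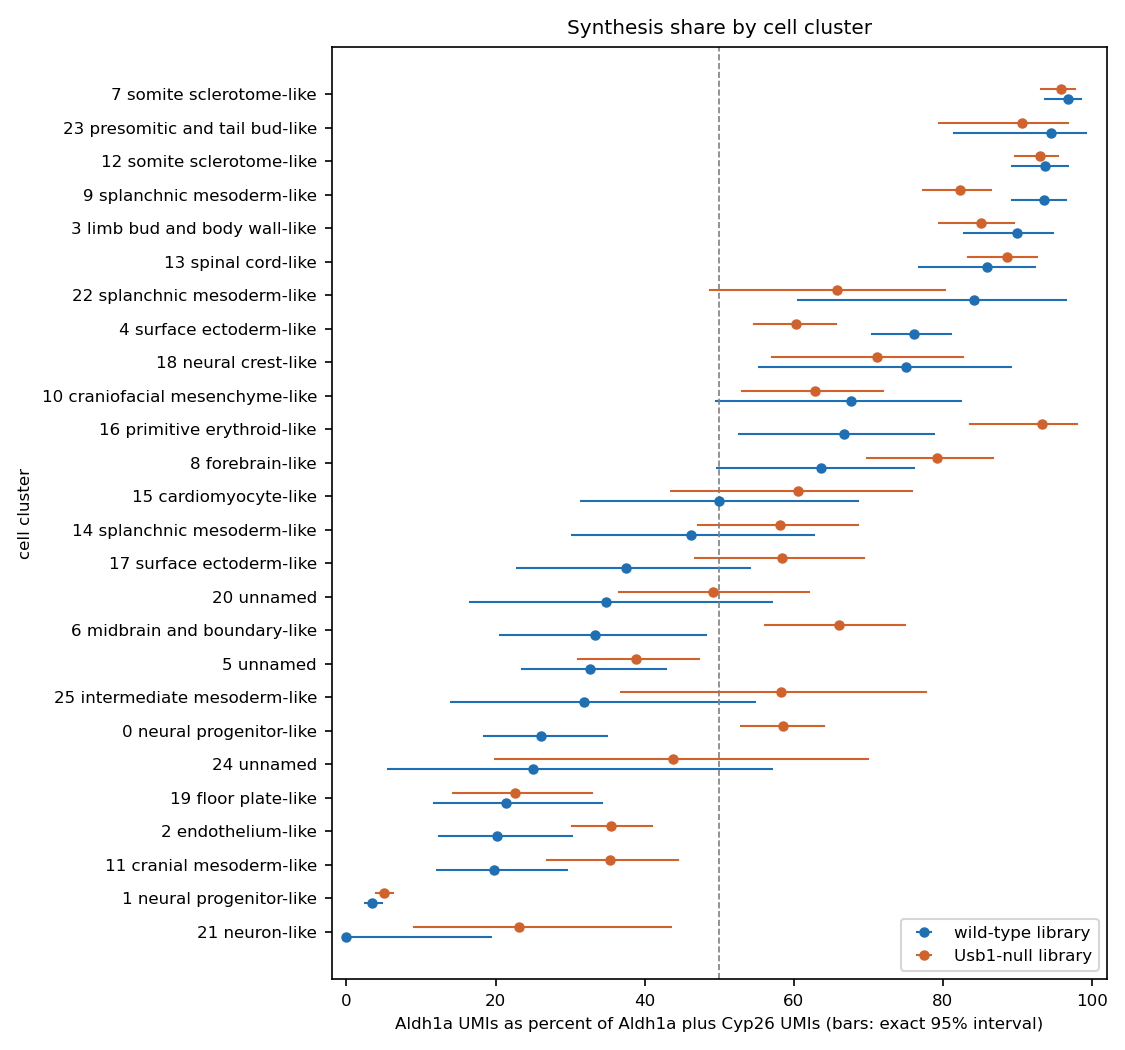
Synthesis share (Aldh1a UMIs as percent of Aldh1a plus Cyp26 UMIs) of the 26 clusters, ordered by the wild-type library, with exact 95% intervals as bars and a dashed line at 50%. Somite, presomitic and limb bud-like clusters lie near the top in both libraries and neural progenitor-like cluster 1 near the bottom (3.46% and 4.98%), whereas cluster 0 moves from 26.1% to 58.5%.

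Transcripts of the 2 arms were seldom caught in the same cell. Of 871 wild-type cells with an Aldh1a UMI, 30 (3.44%) also had a Cyp26 UMI, against 4.66% of all cells. In the null library these were 88 of 1396 cells (6.30%) against 8.15%. Within the Cyp26b1-rich cluster 1, 7 of 20 wild-type and 14 of 33 null cells with an Aldh1a UMI also had a Cyp26 UMI, where 28.5% and 39.98% of all cells had one. With so few UMIs per cell these counts describe capture as much as expression.

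Along the neural tube Cyp26b1 and Cyp26c1 peaked in one cluster, Rarb in another and Aldh1a2 in another. Clusters are ordered here from front to back by Otx2 and Hox genes, which were picked after values were seen. Otx2 was at 356 CPM in the forebrain-like cluster 8 and 422 CPM in the midbrain-like cluster 6 of the wild-type library, Egr2 was highest of the 5 clusters in cluster 1, Hoxb4 was at 168 CPM in cluster 0, and Hoxc8 at 94.3 CPM in the spinal cord-like cluster 13. The first 2 clusters had little of Aldh1a2, Cyp26b1 or Cyp26c1. Cyp26b1 and Cyp26c1 were then high in cluster 1, and Cyp26b1 was at 56.0 and 52.4 CPM in cluster 0, far below its level in cluster 1. Rarb was highest in cluster 0, and Aldh1a2 only reached a high level in cluster 13.

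**Figure D3:**
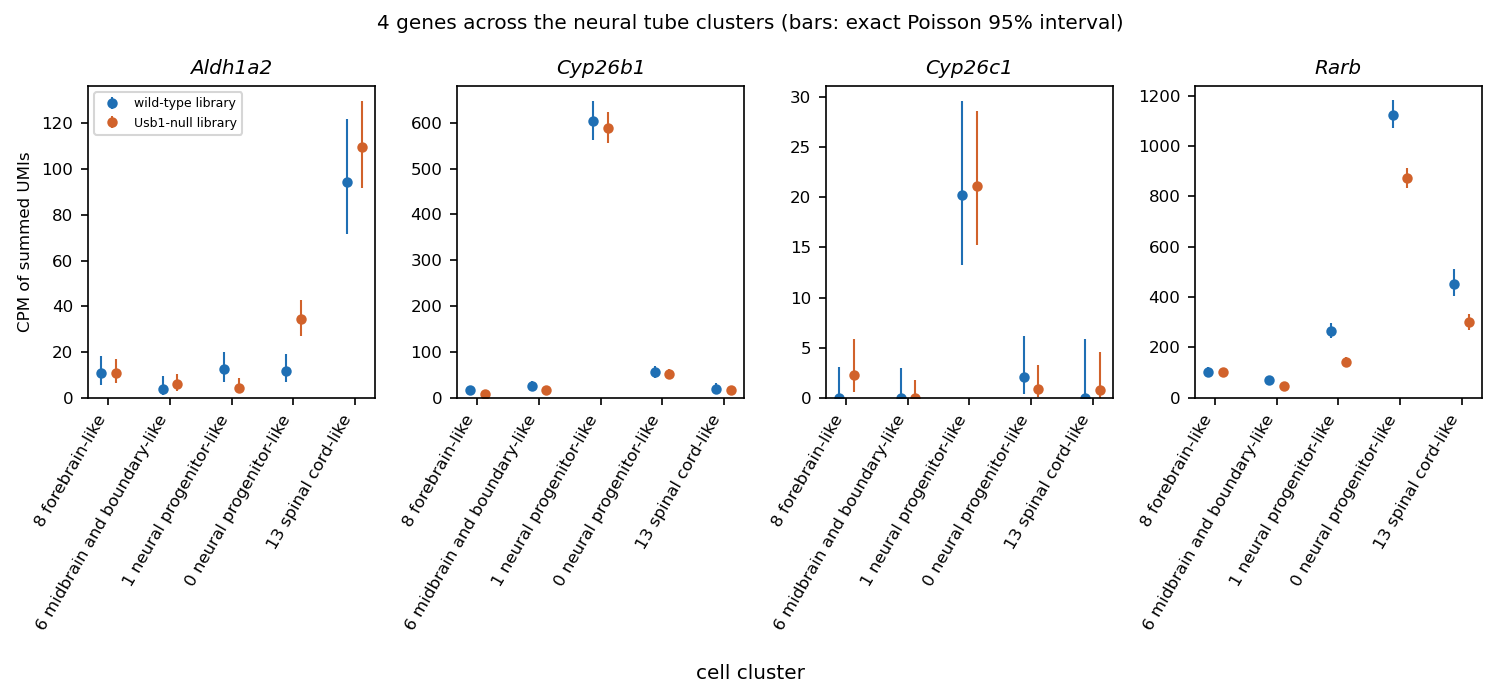
CPM of Aldh1a2, Cyp26b1, Cyp26c1 and Rarb in 5 neural tube clusters from front (8, forebrain-like) to back (13, spinal cord-like) in both libraries, with exact Poisson 95% intervals. Cyp26b1 and Cyp26c1 peak in cluster 1, Rarb in cluster 0 and Aldh1a2 in cluster 13 in both libraries.

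Rarb was the most abundant of the 3 receptors by UMI count, with 5809 wild-type and 7389 null UMIs, and its leading cluster stood 6.12 (wild-type) and 5.81 (null) times above the median cluster. Counts were not corrected for gene length, and Rarb spans 388318 bases against 47125 for Rara and 22580 for Rarg. Rarb was at 1124.5 CPM (1070.2 to 1180.8) in cluster 0 of the wild-type library and at 873 CPM (835 to 913) in the null library. The unnamed cluster 20, which carried gut and yolk sac endoderm markers, came second with 630 (553 to 714) and 454 (411 to 500) CPM. Spinal cord-like cells (454 and 301 CPM), limb bud and body wall-like cells (374 and 333 CPM) and splanchnic cluster 9 (324 and 246 CPM) followed. Low levels were found in the midbrain-like (72.0 and 47.8 CPM), presomitic (41.6 and 42.8 CPM) and erythroid-like (80.1 and 40.3 CPM) clusters. The somite cluster 12, rich in Aldh1a2, had only 82.5 and 81.3 CPM of Rarb, and over the 26 clusters the log2 levels of Rarb and Aldh1a2 had r of 0.03 in the wild-type and 0.24 in the null library.

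The share of cells with a Rarb UMI was 22.4% (21.8% to 23.1%) in the wild-type and 29.5% (28.7% to 30.3%) in the null library. Thinned to 892 UMIs, which left out 3788 wild-type and 420 null cells, it was 17.0% and 14.6%, in the order of the CPM. As a background, 5.695% of wild-type and 5.291% of null primitive erythroid-like cells held a Rarb UMI, at median depths of 838 and 1723 UMIs. For Aldh1a2, Cyp26b1, Rara, Rarg and Dhrs3 the erythroid-like shares ran from 0.503% to 1.84% in the wild-type and from 0.529% to 2.65% in the null library.

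Rara and Rarg had fewer UMIs and no single leading cluster. Rara, the receptor known for its broad expression, had its highest wild-type level in neural crest-like cells (40.8 CPM), 1.64 times the median cluster, and the intervals of 22 other clusters overlapped it. In the null library the top was 56.7 CPM in intermediate mesoderm-like cells, 1.89 times the median. Levels of Rara in the 26 clusters of one library said little about the other (r = 0.27), whereas those of Rarb (r = 0.96), Aldh1a2 (r = 0.90), Cyp26c1 (r = 0.87) and Cyp26b1 (r = 0.85) were alike. Rarg, which is known from skin, cartilage precursors and facial mesenchyme, led in craniofacial mesenchyme-like cells with 52.2 CPM (39.9 to 67.0) and 55.4 CPM (44.3 to 68.5). Surface ectoderm-like cluster 17 had 49.7 and 42.4 CPM of Rarg and limb bud and body wall-like cells 39.1 and 32.4 CPM, and the interval of cluster 17 overlapped that of the leading cluster in both libraries.

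Dhrs3, which limits retinaldehyde and is itself induced by retinoic acid, was at 39.2 CPM (21.9 to 64.6) and 28.9 CPM (18.9 to 42.3) in the endodermal cluster 20. Endothelium-like cells had 28.1 and 16.4 CPM, limb bud and body wall-like cells 14.3 and 22.9 CPM, and somite cluster 7 had 16.9 and 19.2 CPM. With 240 and 344 UMIs in all, the intervals of 13 and 11 other clusters overlapped that of the leading cluster. In cluster 29, which led with megakaryocyte and platelet genes such as Itga2b and was too small to compare, 4 UMIs each came from 18 wild-type and 6 null cells.

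Between the genotypes, levels over whole libraries differed little for most members. A difference was counted by size alone, at 1.5-fold or more on the log2 scale with 1 CPM added, for genes that reached 50 UMIs in the sum of both libraries, as 9 members did. Of these 1 was higher in the null library and 0 were lower. Over all 16752 genes with that many UMIs, 5.7% were higher and 3.96% lower by this size. The median log2 ratio was 0.07 over the 9 members and 0.00 over all genes.

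Aldh1a3 was the member past the threshold, at 18.1 CPM (16.4 to 20.01) in the wild-type and 30.2 CPM (28.3 to 32.1) in the null library. The ratio of null to wild-type was 1.66 (1.48 to 1.87). Among the other synthesis and breakdown genes, Aldh1a2 (41.6 and 40.5 CPM, ratio 0.974, 0.895 to 1.06) and Cyp26b1 (58.6 and 61.5 CPM, ratio 1.05, 0.979 to 1.13) were near 1. Cyp26a1 (2.53 and 3.33 CPM, ratio 1.31, 0.943 to 1.85) and Cyp26c1 (6.21 and 5.36 CPM, ratio 0.863, 0.687 to 1.09) had wide intervals that held 1, and so did Aldh1a1 (ratio 1.30, 0.663 to 2.68). Of the 28 null UMIs of Aldh1a1, 9 lay in 60 mature liver-like cells that the wild-type library lacked, and without these cells its ratio was below 1 (0.886, 0.421 to 1.91).

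The receptors differed by less than 1.5-fold. Rara was at 24.4 CPM in the wild-type and 30.5 CPM in the null library (ratio 1.25, 1.12 to 1.39), and Rarb at 267 and 221 CPM (ratio 0.828, 0.800 to 0.857). Their counting intervals leave out 1 in opposite directions, but the spread between embryos and libraries is unknown. Rarg (17.7 and 18.6 CPM, ratio 1.05, 0.926 to 1.20) and Dhrs3 (11.04 and 10.3 CPM, ratio 0.933, 0.789 to 1.11) were close to 1. Giving the null library the cluster shares of the wild-type library left Aldh1a3 at a ratio of 1.77, Rara at 1.23 and Rarb at 0.805. Rara was higher in the null library in 15 of the 26 clusters and lower in 11. Whether a cluster holds the same cells in both libraries was not tested.

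**Figure D4:**
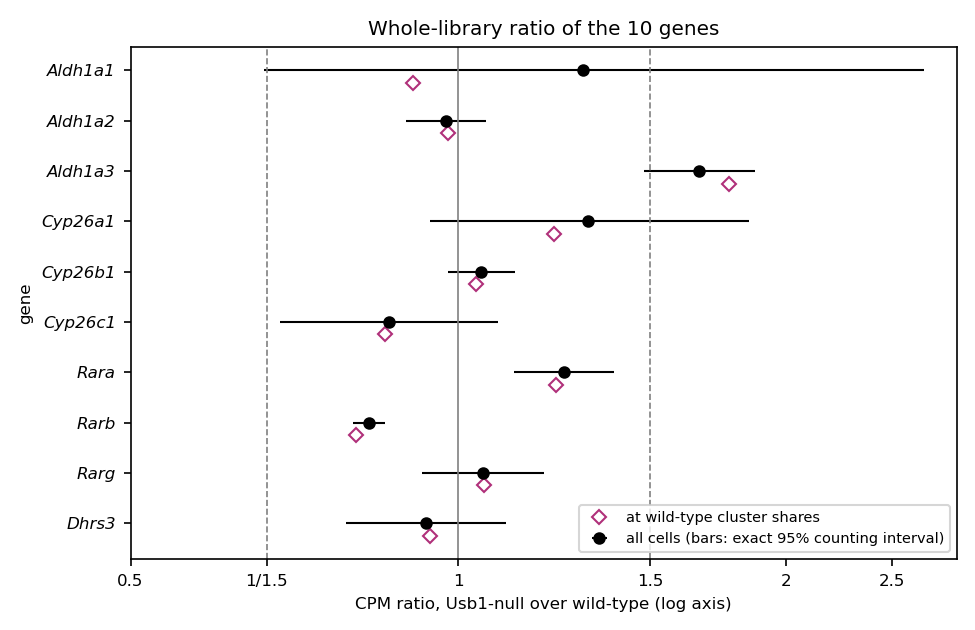
Ratio of Usb1-null to wild-type CPM for the 10 genes on a log axis, over all cells (points, with exact 95% counting intervals) and with the null library at wild-type cluster shares (diamonds). Dashed lines mark 1.5-fold either way, and Aldh1a3 at 1.66 is the member with at least 50 UMIs beyond them.

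Within clusters, 78 pairs of member and cluster had at least 50 UMIs over both libraries. Of these, 20 were higher and 7 lower in the null library by 1.5-fold or more, with a median log2 ratio of -0.02. The higher pairs numbered 11 without called doublets and 1 when at least 200 UMIs were required. Among all 180128 pairs of gene and cluster with at least 50 UMIs, 5.86% were higher and 7.59% lower, with a median of -0.01. This background was not counted without doublets or with at least 200 UMIs. Aldh1a3 accounted for 9 of the 20 higher pairs. The others were 5 of Rara, 3 of Cyp26b1 and 1 each of Aldh1a2, Rarg and Dhrs3, and of the 7 lower pairs 3 were of Rarb. Among those of Rara, named after values were seen, endothelium-like cells had 16.2 and 32.3 CPM (ratio 2.00, 1.24 to 3.34).

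The excess of Aldh1a3 lay outside the cluster that led it. Away from surface ectoderm-like cluster 4, the wild-type library had 212 UMIs (10.3 CPM) and the null library 835 (26.6 CPM), a ratio of 2.58 (2.21 to 3.011), and the level was higher in the null library in 24 of 26 clusters. Among the 10 clusters with at least 50 Aldh1a3 UMIs, the largest ratios were in primitive erythroid-like cells (17.2 and 131 CPM, ratio 7.64, 4.03 to 15.7), endothelium-like cells (4.92 and 33.6 CPM, ratio 6.82, 3.16 to 17.5) and neural progenitor-like cluster 0 (8.40 and 44.3 CPM, ratio 5.27, 2.88 to 10.6). Ratios from 2.14 to 3.04 were found in neural progenitor-like cluster 1 and in the midbrain-like, forebrain-like, craniofacial, limb bud and second surface ectoderm-like clusters. In cluster 4 itself, which is named after its values were seen, the level was lower in the null library (157 and 88.6 CPM, ratio 0.565, 0.456 to 0.699).

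**Figure D5:**
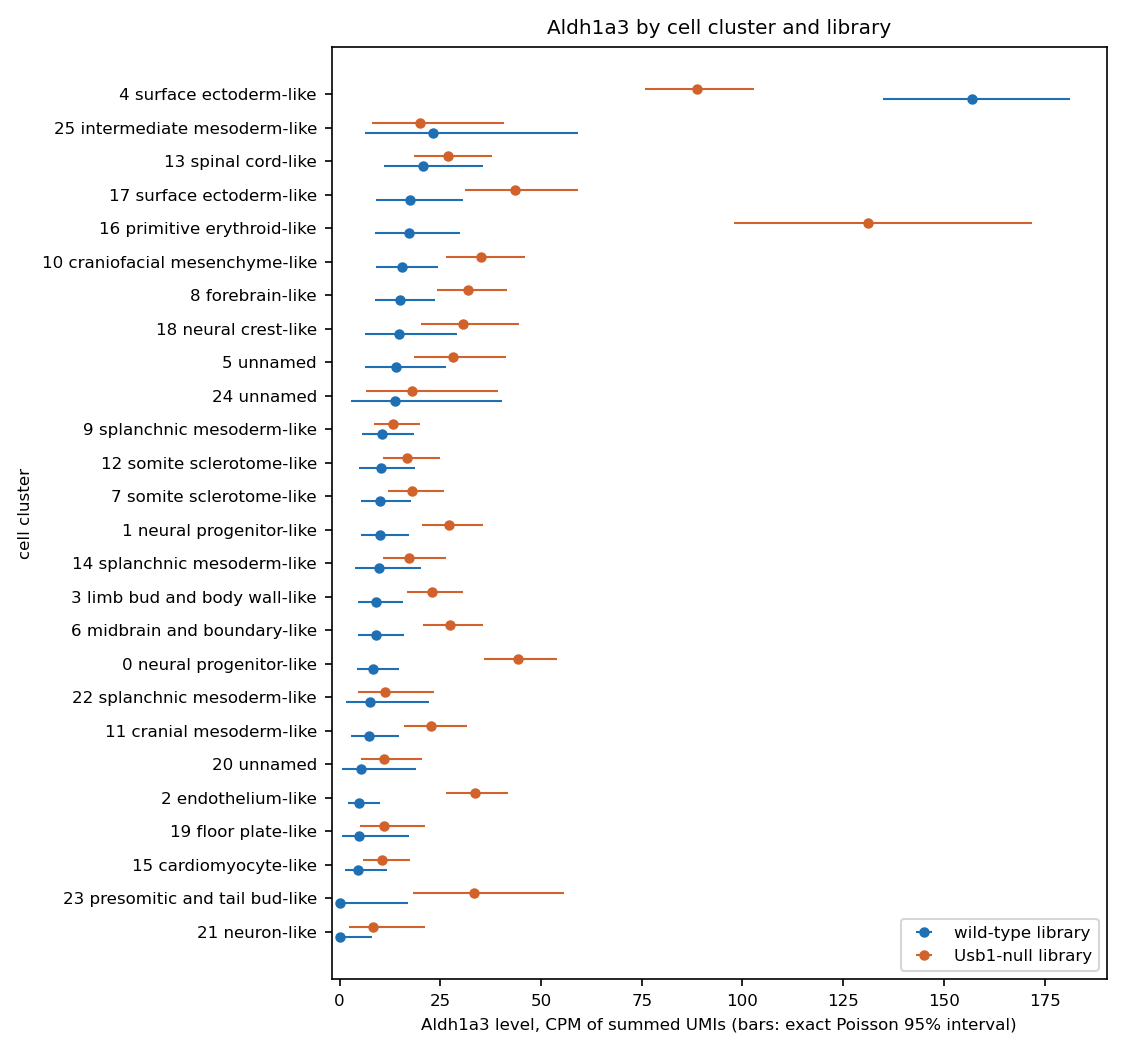
Aldh1a3 level in the 26 clusters of both libraries, ordered by the wild-type library, with exact Poisson 95% intervals. In the null library the level is lower in surface ectoderm-like cluster 4 (88.6 against 157 CPM) and higher in most other clusters, most of all in primitive erythroid-like cells (131 against 17.2 CPM).

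The extra Aldh1a3 transcripts came in part as several UMIs per cell. Outside cluster 4, 20 of 14339 wild-type cells (0.140%, 0.0852% to 0.215%) and 168 of 12252 null cells (1.37%, 1.17% to 1.59%) had at least 2 UMIs, with at most 4 and 9 in a cell. After thinning to 892 UMIs the shares were 0.0557% and 0.405%. These cells lay in 14 of 28 wild-type and 25 of 29 null clusters. Scrublet called 13 of the 168 null cells doublets (4.39% of all null cells outside cluster 4 were called). For comparison, the thinned shares of cells with at least 2 UMIs outside the leading cluster were 0.428% and 0.426% for Aldh1a2 and 0.3002% and 0.314% for Cyp26b1. Primitive erythroid-like cells made up 597 wild-type and 189 null cells, and 23 of the latter (12.2%) had an Aldh1a3 UMI against 1.51% in the wild-type library. Sex and depth differ between these libraries too, and their part in this was not tested.

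Rarb was lower in the null library in 22 of 26 clusters. The 3 pairs past 1.5-fold were primitive erythroid-like cells (80.1 and 40.3 CPM, ratio 0.504, 0.270 to 0.891) and, named after their values were seen, neural progenitor-like cluster 1 (267 and 144 CPM, ratio 0.538, 0.459 to 0.632) and spinal cord-like cells (454 and 301 CPM, ratio 0.663, 0.567 to 0.777). In the forebrain-like cluster the levels were alike (123 wild-type and 179 null UMIs, ratio 1.003, 0.793 to 1.27).

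Aldh1a2 and Cyp26b1, level over the whole libraries, differed in single clusters. Aldh1a2 was higher in the null library in cluster 0, with 17 wild-type and 76 null UMIs (11.9 and 34.3 CPM, ratio 2.89, 1.69 to 5.21). Position genes of the same cluster differed in direction, with Hoxb4 at 168 and 89.0 CPM, Hoxb2 at 49.7 and 67.7 CPM and Hoxa2 at 30.1 and 32.1 CPM. Cyp26b1 was higher in the null library in splanchnic cluster 9 (9.74 and 27.9 CPM, ratio 2.87, 1.47 to 6.12), from 11 and 48 UMIs, and stayed within 1.5-fold in its leading cluster 1. Its direction differed between clusters. Of the 9 clusters with at least 50 Cyp26b1 UMIs over both libraries, it was past 1.5-fold higher in 3 and lower in 1, the midbrain-like cluster 6, also named after values were seen (25.4 and 16.1 CPM, ratio 0.635, 0.377 to 1.07). In the presomitic mesoderm and tail bud-like cells, also named after values were seen, Aldh1a2 had 34 UMIs in each library (157 and 80.8 CPM, ratio 0.514, 0.310 to 0.852), while T stood at 13.9 and 40.4 CPM and Tbx6 at 41.6 and 38.0 CPM. There the somite gene Meox1 had 481 and 266 CPM and Fgf8, a gene of the posterior end, 4.63 and 64.1 CPM (1 and 27 UMIs), and the part of such a shift in position was not tested.

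Other genes of the pathway, in 6 lists with 48 genes, also differed little. Of the 41 with at least 50 UMIs, 3 were higher and 1 lower by 1.5-fold over whole libraries (backgrounds of 5.7% and 3.96%), and the median log2 ratio was -0.06. Among the 11 counted genes of retinol supply and retinaldehyde formation, the plasma retinol carriers Ttr (6.12 and 14.3 CPM, log2 ratio 1.11) and Rbp4 (7.73 and 14.4 CPM, log2 ratio 0.82) were higher in the null library. Both led in the endodermal cluster 20, Rbp4 with 290 and 300 CPM and Ttr with 266 and 245 CPM there, and this cluster held 1.78% of wild-type and 2.57% of null cells. Of the null UMIs, 142 of Ttr and 53 of Rbp4 lay in the 60 mature liver-like cells, and without these cells the log2 ratios were 0.64 and 0.66. The 1 lower gene was the reductase Dhrs4 (26.5 and 16.4 CPM), named after its value was seen.

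None of the 3 binding proteins and none of the 3 retinoid X receptors passed 1.5-fold. Crabp1, which binds retinoic acid in the cytoplasm, had a log2 ratio of -0.54 (71.7 and 49.1 CPM) and Fabp5, which can deliver it to other nuclear receptors, one of -0.44. Rxrb had -0.50 and Rxrg 0.20. Of the 9 corepressors and coactivators none passed, with Ep300 at 0.27 and Nrip1 at -0.15, and of the 3 counted other aldehyde dehydrogenases none did, with Aldh2 at -0.27 and Aldh1a7 at -0.26. Of the 12 counted genes known to respond to retinoic acid, 7 had a negative log2 ratio, and Hoxb5 had 0.41 (9.29 and 12.7 CPM).

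Each member with at least 200 UMIs per library was compared with 10759 other genes over the 26 clusters. Ranked by the smaller r of the 2 libraries, the genes most like Aldh1a2 were Hoxa5 (r of 0.79 and 0.75), Hoxa7 and the antisense transcript Hoxaas3. Cyp26b1 was most like Gbx1 (0.71 and 0.75), Ly6h and Fgfr3, and Rarb most like Robo2 (0.60 and 0.68), Ptprd and Bnip3. Rarg was most like Kank2 (0.72 and 0.69), Frmd6 and Dnmt3b, and Dhrs3 most like Airn (0.75 and 0.69), Gm49959 and Igf2r. Rara was most like Pkdcc (0.63 and 0.59), Ghr and Postn, and Aldh1a3 most like Uchl3 (0.58 and 0.72), Hdgf and Mre11a. These correlations describe points that share library and depth.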

How the data were processed

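Dissociated whole embryos were loaded on the 10x Genomics Chromium platform with 3′ chemistry (v3.1). The authors deposited, for each library, raw UMI counts per gene and barcode, with no normalization. The file headers name Cell Ranger 6.1.2, whereas the submitters' processing notes list Cell Ranger 2.1.1 and the build mm10. The labels name the molecule as nuclear RNA although the protocol describes cells. The median mitochondrial share of UMIs was 0.309% in the wild-type and 0.105% in the null library, and whether cells or nuclei were loaded was not tested. Whether intronic reads were counted is not stated in the sources used here.

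Cells with 200 to 6000 detected genes and under 30% mitochondrial UMIs were kept, as in the methods of the study. For clustering, each cell was scaled to 10000 UMIs, values were put on a natural log scale, and 2000 variable genes were chosen with Scanpy 1.11.5, leaving out the members, the pathway lists, Xist, Tsix and the genes of the mitochondrion, the ribosome and the Y chromosome. Then 30 principal components were corrected for library with Harmony, rewritten in NumPy 2.4.6, and clustered by Leiden (leidenalg 0.10.2) on a graph of 20 neighbours, at resolution 1.2, chosen for a cluster number close to 30. A cluster took the name of the list with the most raised markers (at least 10 UMIs and a 2-fold excess), at least 3, if no list had more among the 10 leading genes. Ties went to the list with more leading genes, and a cluster with under 0.6 times the median depth of both libraries and no leading marker stayed unnamed. This rule was set after the clusters were seen. Doublets called by Scrublet at an expected rate of 10% (1025 wild-type and 560 null cells) were kept in the main analysis.

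Levels are sums of UMIs over the cells of a cluster in a library, as CPM. Poisson, Clopper-Pearson and conditional binomial 95% intervals were exact and cover counting error only. No test was run, because there was 1 library per genotype. All 10 members are named. Of the pathway lists the 2 genes with the largest absolute log2 ratio per list are named, of pairs of member and cluster past 1.5-fold the 12 largest, except that some values are not reported here, and for each member with at least 200 UMIs per library the 3 genes most like it, by r of log2(CPM + 5). The members, lists and tests were chosen with earlier results of these data known. The calculation of ratios was tested on simulated counts, which held counting error only and no spread between embryos or libraries.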

Additional observations from a re-analysis of the deposited data

Results flagged for a closer look

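Aldh1a1 gave a signal in cells that no comparison used. Cluster 27, with 60 Usb1-null and 0 wild-type cells, was mature liver-like by all 8 markers, and 9 of the 28 null UMIs of Aldh1a1 lay there, 1 in each of 9 cells. The level was 89.75 CPM (41.0 to 170), against 0.571 CPM (0.344 to 0.892) in the other null cells. Where these cells came from was not tested.

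For 2 members the difference between the libraries ran in opposite directions in different clusters, with counting intervals that leave out 1 on both sides, and these contrasts were not tested. The log2 ratio of Aldh1a2 was -0.95 in presomitic mesoderm and tail bud-like cluster 23 and 1.45 in neural progenitor-like cluster 0. In cluster 23 the position genes Meox1 (481 and 266 CPM) and Fgf8 (4.63 and 64.1 CPM) differed too, while Tbx6 had 41.6 and 38.0 CPM. Position genes of cluster 0 differed in direction. Hoxb4 was lower in the null library (168 and 89.0 CPM), Hoxb2 higher (49.7 and 67.7 CPM) and Hoxa2 nearly level (30.1 and 32.1 CPM). Whether these clusters hold the same cells in both libraries was not tested. That of Aldh1a3 was -0.82 in surface ectoderm-like cluster 4 and 2.86 in primitive erythroid-like cluster 16. In cluster 4 some other genes differed too, with Krt8 at 91.4 and 54.6 CPM, Six3 at 34.5 and 19.6 CPM and Tbx1 at 52.6 and 77.3 CPM. Otx2 (118 and 124 CPM) and Fgf8 (138 and 124 CPM) differed less there. Krt8 was lower in the null library in most other clusters as well (139 and 111 CPM in cluster 17), though not in clusters 12 and 18. The part of a shift in position was not tested.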

How the results depend on the processing

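No paired analysis was possible because each genotype had 1 library, and for the same reason no replicate could be left out. Aldh1a3 was the 1 member higher by 1.5-fold, and 0 members were lower, under 10 other choices of cells, scaling, pseudocount and cell weights and, chosen after seeing the data, without the mature liver-like cells, with a whole-library log2 ratio from 0.60 to 0.79, while a 2-fold threshold left 0 members higher. The median log2 ratio of all genes stayed within 0.02 of 0 under them. Pairs of member and cluster past 1.5-fold numbered 20 higher and 7 lower, and became 1 and 3 with at least 200 UMIs, 40 and 16 with at least 20 UMIs, and 11 and 7 without doublets. The lower pairs numbered 4 with 20 clusters, 11 with 40 clusters and 11 with the stricter minimum of detected genes per cell. The share over all pairs of gene and cluster was not counted under these settings, so the changes in these counts have no background. The synthesis share of trunk mesoderm classes moved beyond its interval to 92.4% in the wild-type and 89.3% in the null library when the variable set kept all genes, to 93.3% and 88.8% without doublets, and, in the null library, to 88.2% with 40 clusters. That of head classes ran from 35.0% to 41.2% in the wild-type and from 57.7% to 62.5% in the null library over the 9 clusterings. Over the same clusterings the log2 ratio of Aldh1a3 ran from -0.89 to -0.52 in its leading cluster and from 1.25 to 1.38 outside it. The cell class holding most UMIs was the same in all 8 other clusterings for Aldh1a2, Aldh1a3 and Cyp26c1 in both libraries, and for Cyp26b1 in 6 (wild-type) and 5 (null) and for Rarb in 5 and 4 of the 8. Members under 200 UMIs per library (Aldh1a1, Cyp26a1, Cyp26c1) were limited by depth. The cause of these shifts was not tested.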
